A study of Mus musculus with 8 samples.

Results

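The desmosome genes described here are 10 genes of the junction that joins epithelial cells and anchors their keratin filaments. They were chosen by symbol, from knowledge of the structure and with earlier results of these data known: the desmocollins Dsc2 and Dsc3, the desmogleins Dsg2 and Dsg3, plakoglobin (Jup), the plakophilins Pkp1, Pkp2 and Pkp3, desmoplakin (Dsp) and the membrane protein Perp. All 10 had a probe set of their own among the 19938 genes measured, and each had exactly 1. RNA was measured on 8 single-colour arrays of Epcam(+) epithelial cells of E18.5 mouse lungs, taken from 4 knockout embryo samples labelled Mst1/2 CKO and 4 samples labelled Control. Per the series' design text, Mst1 and Mst2, the kinases at the head of the Hippo pathway, were deleted with ShhCre, which is active in epithelial progenitors of the developing lung. The labels do not give the alleles of the Control group or say whether embryos were pooled, and they call each array a biological replicate. If the arrays of a group did not come from separate embryos, the p-values measure technical spread.

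In a desmosome, the desmocollins and desmogleins are transmembrane cadherins that bind those of the neighbouring cell. Their tails bind plakoglobin and the plakophilins, and these bind desmoplakin, which holds the keratin filaments. Simple epithelia such as the alveolar lining are known to use Dsc2 and Dsg2, while Dsc3, Dsg3 and Pkp1 are known from stratified and basal epithelia. Mst1 and Mst2 act through the Lats kinases to restrain the coactivators Yap and Taz, and the comparison asks which transcripts differ once this restraint is lost.

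Levels are log2 expression as deposited, differences are knockout minus control with the standard error (SE) of limma's fit, and a gene is said to have risen or fallen only if its p, adjusted over all genes by the Benjamini-Hochberg method, was below 0.05. The number of arrays limits the precision, and in bulk samples fewer cells of a type and less RNA per cell cannot be told apart. The array medians lay between 7.21 and 7.30. Stk4, which encodes Mst1, read 9.24 to 9.45 in the knockout arrays and 9.59 to 9.84 in the control arrays (log2 difference -0.30, SE 0.076, adjusted p = 0.0188), and leaving out knockout replicate 3 ended that call (-0.28, adjusted p = 0.0592), as did leaving out knockout replicates 1 and 4 together (-0.29, adjusted p = 0.0703) and adding the mean mesenchymal marker level as a covariate (-0.20, adjusted p = 0.314). Whether its probe set lies in the deleted part is not known, so it does not check the deletion, and Stk3 (the gene for Mst2) was not analysed here. Epcam (9.84 to 10.24 in knockout and 9.94 to 10.24 in control arrays) and the lung epithelial factor Nkx2-1 (11.02 to 11.17 and 10.93 to 11.33) were high in every array. Knockout replicate 1 stood apart in reading both the X-inactivation transcript Xist (10.31) and the Y-linked Eif2s3y (9.57) far above the arrays where each was low, while each of the 7 other arrays was high in only 1 of them.

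Desmosome transcripts were higher in the knockout cells. Of the 10 genes 7 rose (Dsc2, Dsg2, Jup, Pkp1, Pkp2, Pkp3 and Dsp), 0 fell and 3 did not pass (Dsc3, Dsg3 and Perp), where 8.6% of all genes tested rose and 10.2% fell. At an unadjusted p below 0.05, 8 were higher and 0 lower in limma's test. Every knockout value lay above every control value in 7 of the 10 genes (70%), against 10.2% of all genes. These were the same 7 that rose, and both counts come from the same values. The median difference was 0.27 over the 10 genes and -0.016 over all genes. Dsc2 rose 2.25-fold and the 6 others by 1.16-fold to 1.29-fold.

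**Figure D1:**
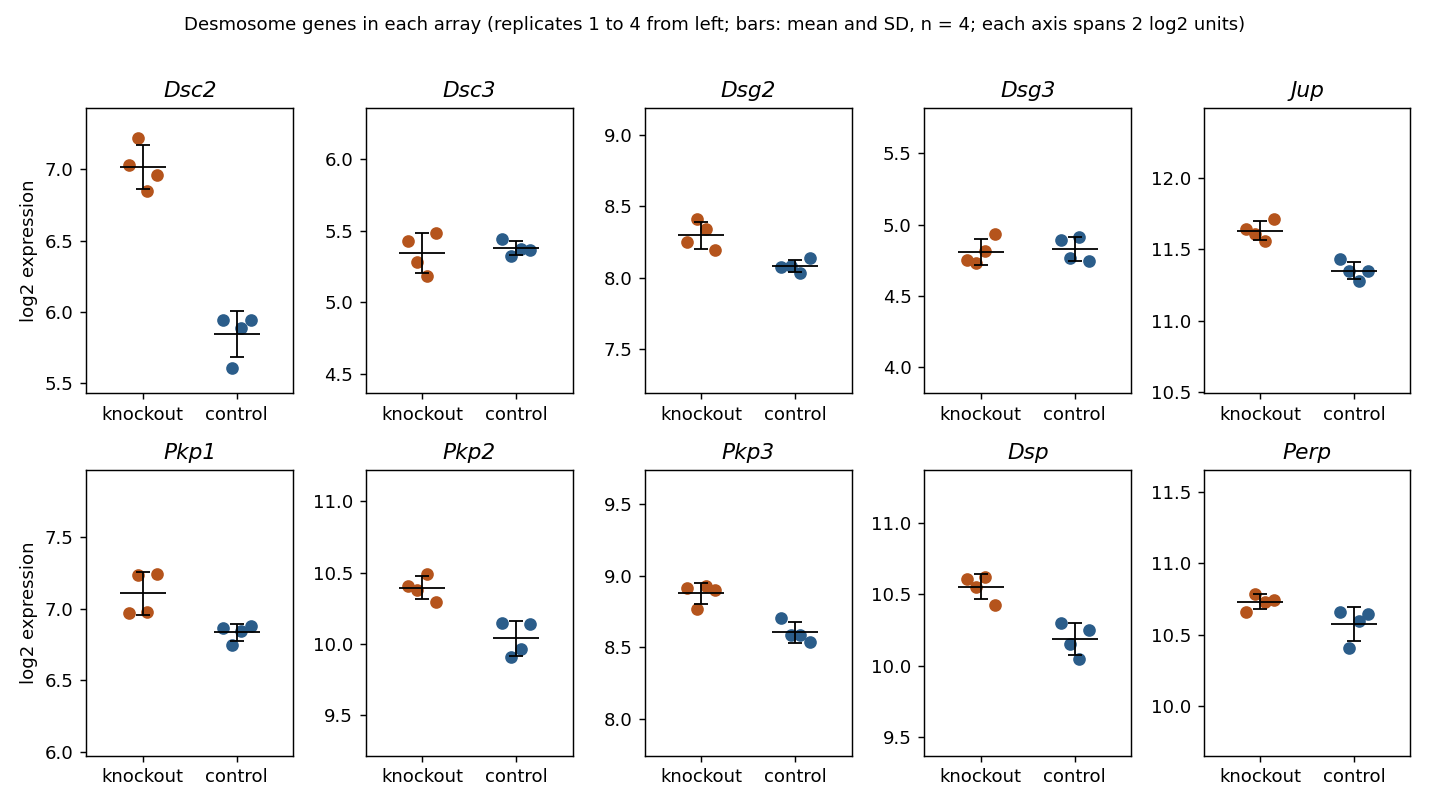
Log2 expression of the 10 desmosome genes, 1 panel per gene, with the 4 knockout arrays on the left and the 4 control arrays on the right; points are arrays and bars the mean and SD. Every vertical axis spans the same range, and the gap between the groups is widest for Dsc2, at 6.85 to 7.22 in knockout and 5.61 to 5.94 in control arrays.

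Among the desmosomal cadherins, the pair of simple epithelia rose and the pair of stratified epithelia did not pass the test. Dsc2 read 7.03, 7.22, 6.85 and 6.96 in knockout replicates 1 to 4, against 5.94, 5.61, 5.89 and 5.94 in control replicates 1 to 4. The lowest knockout value was 0.91 above the highest control value, and control replicate 2 was the lowest of all. Dsc2 averaged 7.01 ± 0.16 in knockout and 5.85 ± 0.16 in control arrays (SD, n = 4 each), a difference of 1.17 (SE 0.097, adjusted p = 2.37e-05) that ranked 44 from the top among the 19938 genes. It stayed between 1.09 and 1.25 under the 16 alternatives that tested it, with adjusted p between 1.29e-05 and 6.11e-04. Dsg2, the desmoglein found in all desmosome-bearing tissues, read 8.25, 8.41, 8.34 and 8.19 in knockout replicates and 8.08, 8.08, 8.03 and 8.13 in control replicates. The groups did not overlap, but knockout replicate 4 was only 0.058 above control replicate 4. Its rise was 0.22 (SE 0.062, adjusted p = 0.0335), and the call ended without any 1 of knockout replicates 1, 2 and 3 or control replicates 1, 2 and 3 (0.18 to 0.23, adjusted p 0.0506 to 0.100).

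Dsc3, the desmocollin of basal layers, read 5.43, 5.28, 5.18 and 5.49 in knockout replicates and 5.44, 5.33, 5.37 and 5.37 in control replicates (difference -0.031, SE 0.074, adjusted p = 0.837). Knockout values lay on both sides of the control values. Dsg3, a desmoglein of stratified epithelia, read 4.75, 4.73, 4.82 and 4.94 in knockout replicates and 4.89, 4.76, 4.91 and 4.74 in control replicates (difference -0.017, SE 0.068, adjusted p = 0.907). Here too the groups overlapped, and the 95% intervals of both differences, -0.19 to 0.13 for Dsc3 and -0.17 to 0.13 for Dsg3, lay below the rise of Dsc2. Levels are not comparable between probe sets, but Xist, Eif2s3y, Kdm5d and Uty, in the arrays where each of these sex-linked genes was low, read between 4.16 and 6.33. Dsc3, Dsg3 and the control values of Dsc2 fall within that span, while the knockout values of Dsc2 lie above it. Whether they were at their own background was not tested, so the fold of Dsc2 may be a lower bound and a change in Dsc3 or Dsg3 may not be detectable.

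The responses of related genes were compared directly in 6 pairs, by an exact two-sided permutation test over the 70 ways to split the arrays 4 and 4, in which the smallest possible p is 0.0286; adjusted over the 6 pairs, it can fall below 0.05 only if at least 4 pairs reach it. Dsc2 minus Dsc3 was 1.47 to 1.93 in knockout and 0.28 to 0.57 in control arrays, so the measured difference of Dsc2 was above that of Dsc3 by 1.20 (95% interval 0.92 to 1.48, exact p = 0.0286, adjusted over the 6 pairs 0.0857). The measured difference of Dsc2 exceeded that of Dsg2 by 0.95 (0.69 to 1.21), with the same exact p of 0.0286 and the same adjusted value of 0.0857. Both are separations without overlap, and neither adjusted value is below 0.05. Since a change in Dsc3 or Dsg3 may not be detectable, the pairs that hold them compare measured values and do not show which gene responded more. The measured difference of Dsg2 was above that of Dsg3 by 0.23 (-0.024 to 0.49, exact p = 0.0857, adjusted 0.171). The knockout minus control differences of the plakophilins did not differ detectably from each other. That of Pkp1 minus that of Pkp2 was -0.078 (-0.36 to 0.21, exact p = 0.514), that of Pkp2 minus that of Pkp3 0.078 (-0.11 to 0.27, exact p = 0.314) and that of Pkp1 minus that of Pkp3 0.00028 (-0.28 to 0.28, exact p = 1).

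The desmosomal cadherin genes lie beside each other on chromosome 18 in RefSeq's gene table (assembly GRCm38.p6), in the order Dsc3, Dsc2, Dsc1, Dsg1c, Dsg1a, Dsg1b, Dsg4, Dsg3 and Dsg2. The genes that rose, Dsc2 and Dsg2, are the second and the last in that row. Between them, Dsg1c (0.028, SE 0.065), Dsg1b (0.038, SE 0.11) and Dsg4 (0.024, SE 0.060) did not pass the test, with adjusted p of 0.833, 0.871 and 0.853, and Dsc1 and Dsg1a were not analysed here. Dsg1b and Dsg1c are close copies of each other, so their values are uncertain. Mean levels were 4.57 in knockout and 4.54 in control arrays for Dsg1c, 4.90 and 4.86 for Dsg1b, and 5.11 and 5.09 for Dsg4. These lie within the span of the low sex-linked probe sets, so a change in these genes may not be detectable.

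Transcripts of the 4 armadillo-family plaque proteins all rose. Jup, plakoglobin, which binds the cadherin tails and also occurs in adherens junctions, read 11.64, 11.61, 11.56 and 11.72 in knockout replicates and 11.43, 11.35, 11.28 and 11.35 in control replicates. Its rise of 0.28 (SE 0.059, adjusted p = 0.00673) left a gap between the groups, with knockout replicate 3 lowest and control replicate 1 highest. Pkp2, the plakophilin of simple epithelia and heart muscle, read 10.40, 10.38, 10.49 and 10.30 in knockout replicates and 10.15, 9.91, 9.96 and 10.14 in control replicates. That is a rise of 0.35 (SE 0.073, adjusted p = 0.00649), again without overlap.

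Pkp3, a plakophilin of most epithelia, read 8.92, 8.77, 8.92 and 8.90 in knockout replicates and 8.71, 8.59, 8.58 and 8.53 in control replicates, a rise of 0.27 (SE 0.062, adjusted p = 0.0104). Its lowest knockout value was that of replicate 2, close to control replicate 1. Pkp1, the plakophilin of stratified epithelia, read 6.97, 7.23, 6.98 and 7.25 in knockout replicates and 6.87, 6.75, 6.84 and 6.88 in control replicates. It rose by 0.27 (SE 0.078, adjusted p = 0.0326), with its lowest knockout value 0.092 above the highest control value. The Pkp1 call ended without any 1 of knockout replicates 2 and 4 or control replicates 1 to 4 (0.23 to 0.29, adjusted p 0.0501 to 0.0942).

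Dsp, desmoplakin, the link from the plaque to keratin filaments, read 10.61, 10.55, 10.62 and 10.43 in knockout replicates and 10.30, 10.15, 10.05 and 10.25 in control replicates. It averaged 10.55 ± 0.087 in knockout and 10.19 ± 0.11 in control arrays (SD, n = 4 each), a rise of 0.36 (SE 0.072, adjusted p = 0.00503), and all knockout values were above all control values. Perp, a tetraspan membrane protein of desmosomes and a target of p53 and p63, read 10.66, 10.79, 10.73 and 10.74 in knockout replicates and 10.66, 10.40, 10.59 and 10.64 in control replicates. The groups met at knockout replicate 1 and control replicate 1, and the difference of 0.15 (SE 0.069, 95% interval 0.0026 to 0.31) did not pass over all genes (adjusted p = 0.161). Without control replicate 2 it was 0.097 (adjusted p = 0.328).

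**Figure D2:**
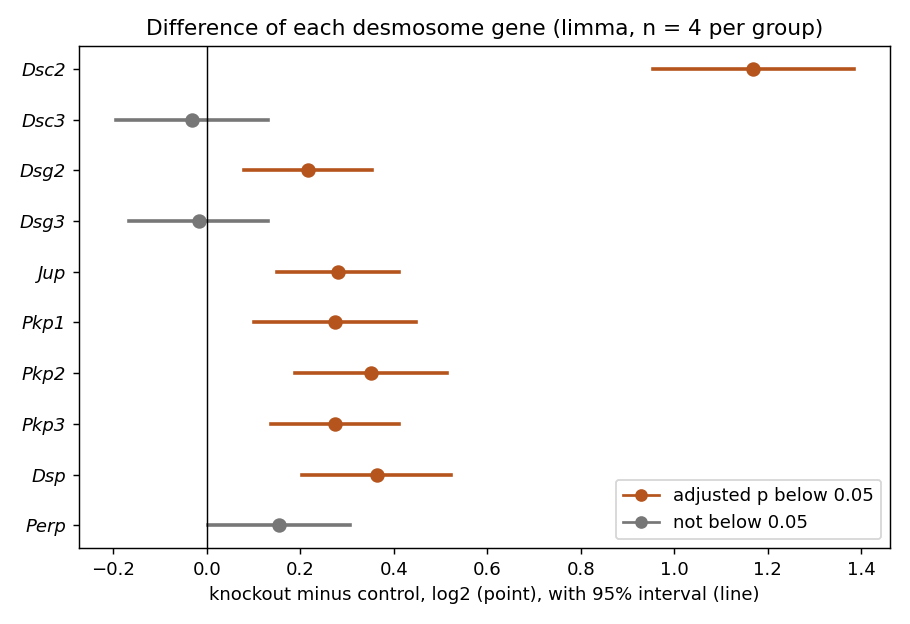
Knockout minus control difference on the log2 scale (points) with its 95% interval from limma (lines) for the 10 desmosome genes, n = 4 arrays per group. The 6 genes that rose beside Dsc2 lie between 0.22 and 0.36, Dsc2 lies at 1.17, Dsc3 lies at -0.031 and Dsg3 at -0.017.

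Promoters of the desmosome genes that rose together are shown for Dsp and Jup, for which RefSeq's promoter table (GRCm38.p6) gave a sequence; each is the 250 bases before the gene's start, read 5′ to 3′ on the gene's strand. Capitals mark GGGCGG or its reverse complement CCGCCC, the GC box bound by Sp and Klf factors. The Dsp sequence is chr13:38151044-38151293 (plus strand) and the Jup sequence chr11:100397791-100398040 (minus strand).
Dsp: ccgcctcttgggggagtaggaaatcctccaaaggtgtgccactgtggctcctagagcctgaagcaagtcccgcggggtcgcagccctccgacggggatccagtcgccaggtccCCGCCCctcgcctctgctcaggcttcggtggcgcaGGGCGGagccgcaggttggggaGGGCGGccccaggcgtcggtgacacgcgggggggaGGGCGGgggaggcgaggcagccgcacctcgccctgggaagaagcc
Jup: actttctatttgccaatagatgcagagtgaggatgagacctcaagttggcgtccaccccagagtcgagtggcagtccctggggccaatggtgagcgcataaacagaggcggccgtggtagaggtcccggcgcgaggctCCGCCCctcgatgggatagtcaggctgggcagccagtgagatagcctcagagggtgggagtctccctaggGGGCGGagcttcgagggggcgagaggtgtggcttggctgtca
The GC box occurred 4 times in the Dsp sequence, with first bases 137, 102, 80 and 45 bases before the start, and 2 times in the Jup sequence, 112 and 42 bases before the start. At least 1 was present in 32.7% of the 32851 promoter sequences of this length that RefSeq's set gave. Both strands were searched as well for 3 other motifs. The Tead motif GGAATG (held by 12.6% of all promoters), the AP-1 motif TGANTCA (6.75%) and the Grhl motif AACCGGTT (0.116%) had no match in either sequence. GC content was 72.4% in Dsp and 62.0% in Jup, against a median of 52.4% over all promoters.

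Of 8 measured genes among other desmosome genes and the plakins near them, 3 rose, 1 fell and 4 did not pass. Over all genes 8.6% rose and 10.2% fell, which is also the background of the lists that follow. The difference was positive in 7 of the 8, with a median of 0.033. Of those that did not pass, Dsg1b, Dsg1c and Dsg4 read within the span of the low sex-linked probe sets. A change in them may not be detectable, so the median may understate the list. Evpl, envoplakin, a desmoplakin relative of the cornified envelope, had the largest difference and the smallest p of the list, at 8.86 to 8.94 in knockout and 8.21 to 8.43 in control arrays (0.53, SE 0.065, adjusted p = 2.22e-04). The other genes that rose were its partner periplakin, Ppl (0.43, SE 0.075, adjusted p = 0.00218), and Kazn, kazrin, which binds periplakin (0.45, SE 0.071, adjusted p = 0.00122). In these 3 genes all knockout values lay above all control values. Pkp4, an armadillo protein related to the plakophilins, fell by 0.21 (SE 0.060, adjusted p = 0.0353), a call that ended under 11 of 17 alternatives, among them leaving out any 1 of knockout replicates 1, 3 and 4 and control replicates 1, 3 and 4 (-0.22 to -0.17, adjusted p 0.0545 to 0.0996). Ppl, Kazn and Pkp4 are outside the naming rule and were picked with their values known.

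Adherens junction genes moved both ways. Of 13 measured, 4 rose, 2 fell and 7 did not pass, with a median of 0.066. Nectin1, an immunoglobulin-type adhesion molecule, had the largest difference and the smallest p, reading 8.67 to 8.91 in knockout and 9.79 to 10.43 in control arrays (-1.36, SE 0.13, adjusted p = 5.19e-05). Cdh1, E-cadherin, the classical cadherin of the same cells, read 12.07 to 12.16 in knockout and 12.06 to 12.14 in control arrays (-0.0041, SE 0.053, adjusted p = 0.974). Ctnnb1, beta-catenin, the relative of plakoglobin in adherens junctions, differed by -0.10 (SE 0.069, adjusted p = 0.395), while alpha-catenin, Ctnna1, which ties that complex to actin, rose by 0.36 (SE 0.076, adjusted p = 0.00702; 0.29 and adjusted p = 0.139 with mesenchymal markers as covariate). The others that rose were P-cadherin, Cdh3 (0.41, SE 0.096, adjusted p = 0.0121), Nectin3 (0.45, SE 0.079, adjusted p = 0.00242) and vinculin, Vcl (0.44, SE 0.098, adjusted p = 0.00989), and the polarity protein Pard3 fell (-0.27, SE 0.056, adjusted p = 0.00635). The Vcl call ended with that covariate (0.38, adjusted p = 0.137) and the Cdh3 call without knockout replicates 1 and 4 together (0.42, adjusted p = 0.0503). Except for Nectin1, the genes of this list were picked with their values known.

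Hemidesmosome genes, which anchor keratin to the basement membrane, had 4 members that rose, 1 that fell and 3 that did not pass out of 8 measured, with a median of 0.27. The number that rose was 2 without knockout replicate 3 and 2 without control replicate 2. Plec, plectin, a plakin that links keratin to integrin, led the list at 9.26 to 9.42 in knockout and 8.74 to 8.94 in control arrays (0.52, SE 0.063, adjusted p = 2.28e-04). The laminin chain Lamb3 (0.34, SE 0.066, adjusted p = 0.00441), the integrin Itgb4 (0.28, SE 0.073, adjusted p = 0.0217) and the laminin chain Lama3 (0.27, SE 0.074, adjusted p = 0.0282) rose too, and the integrin Itga6 fell (-0.35, SE 0.086, adjusted p = 0.0156); these 4 were picked with their values known. Leaving out any 1 of knockout replicate 3 and control replicates 1 and 2 ended the Itgb4 call (0.25 to 0.27, adjusted p 0.0597 to 0.0638), and any 1 of knockout replicates 1 to 3 and control replicates 2 to 4 the Lama3 call (0.23 to 0.28, adjusted p 0.0614 to 0.0822). With the mesenchymal covariate Itgb4 was 0.15 (adjusted p = 0.391) and Itga6 -0.34 (adjusted p = 0.138). Without knockout replicates 1 and 4 together Itgb4 was 0.23 (adjusted p = 0.112), Lama3 0.26 (adjusted p = 0.0734) and Itga6 -0.31 (adjusted p = 0.0503), so these calls ended there too. Of 15 keratin genes, the filaments that desmoplakin and plectin bind, 9 rose, 1 fell and 5 did not pass, and the median was 0.35. Krt4, a keratin of stratified mucosa, read 7.88, 8.60, 8.03 and 8.20 in knockout replicates and 6.06, 5.82, 6.02 and 5.75 in control replicates, a difference of 2.27 (SE 0.14, adjusted p = 7.76e-06). As for Dsc2, its control values lie within the span of the low sex-linked probe sets. Krt19 (0.62, SE 0.086, adjusted p = 5.39e-04), a keratin of simple epithelia picked with its value known, was also without overlap. The keratin that fell was Krt23 (-0.27, SE 0.075, adjusted p = 0.0281), also picked with its value known, which was not called without any 1 of knockout replicates 2 and 4 and control replicates 2 to 4 (-0.29 to -0.23, adjusted p 0.0512 to 0.0749).

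**Figure D3:**
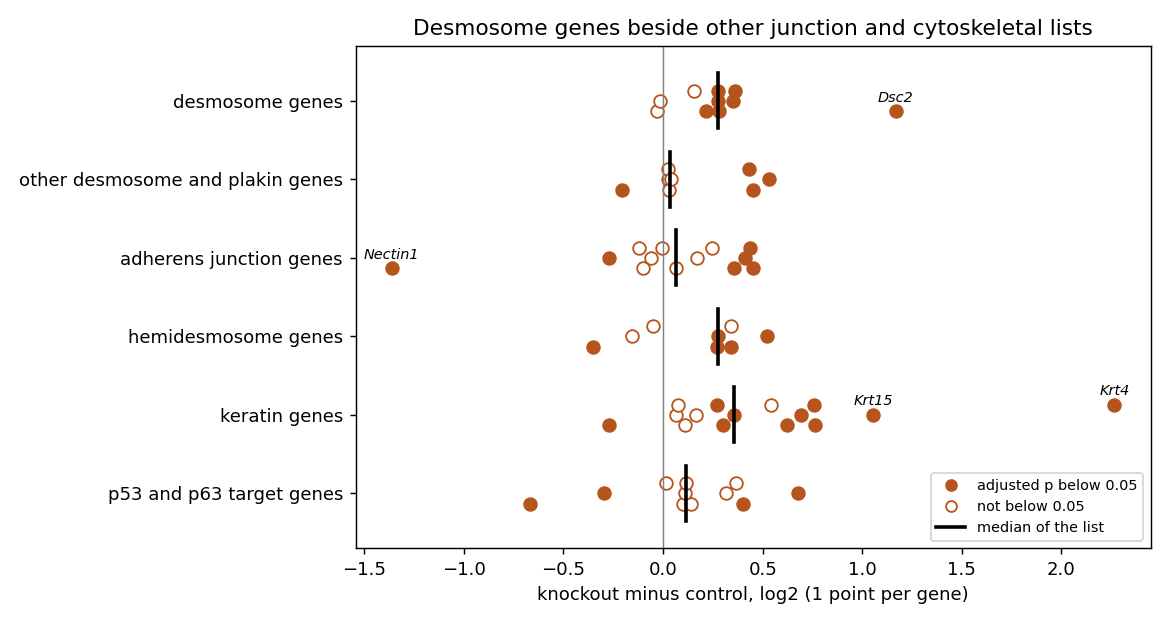
Knockout minus control difference on the log2 scale for each measured gene (points) of 6 lists, 1 row per list, filled where the adjusted p was below 0.05; black bars are list medians. The desmosome genes have a median of 0.27, hemidesmosome genes 0.27, keratins 0.35, adherens junction genes 0.066, other desmosome and plakin genes 0.033 and p53 and p63 target genes 0.11.

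Among 11 measured targets of p53 and p63, the factors known to drive Perp, 2 rose, 2 fell and 7 did not pass, with a median of 0.11. The list also held Cdkn1a, Bax and Gdf15, which were not analysed here. Phlda3, an inhibitor of Akt signalling, had the largest rise and the smallest p, at 8.45 to 8.73 in knockout and 7.82 to 7.95 in control arrays (0.68, SE 0.069, adjusted p = 7.75e-05). Zmat3, an RNA-binding growth regulator, also rose (0.40, SE 0.11, adjusted p = 0.0294), and the stress gene Sesn2 (-0.67, SE 0.098, adjusted p = 7.53e-04) and Trp53inp1 (-0.30, SE 0.079, adjusted p = 0.0247) fell; these 3 were picked with their values known. The Zmat3 call ended without any 1 of knockout replicates 1 and 2 and control replicates 1 and 4 (0.33 to 0.39, adjusted p 0.0668 to 0.0837), and that of Trp53inp1 without any 1 of knockout replicate 3 and control replicates 2 and 4 (-0.30 to -0.26, adjusted p 0.0552 to 0.0671). Only 1 gene rose when knockout replicate 1, knockout replicate 2 or control replicate 1 was left out, and only 1 fell when knockout replicate 3, control replicate 2 or control replicate 4 was.

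The 3 genes outside the desmosome list with values most like those of Dsc2 over the 8 arrays were Tead1, B3gnt3 and Cdc45, with Pearson r of 0.993, 0.993 and 0.992. These correlations describe arrays that fall into separate groups and carry no test. Tead1, the DNA-binding partner of Yap and Taz, read 11.29, 11.33, 11.20 and 11.27 in knockout replicates and 10.79, 10.56, 10.70 and 10.82 in control replicates. In both genes knockout replicate 2 was the highest and control replicate 2 the lowest array. B3gnt3, a glycosyltransferase, differed by 0.48 (SE 0.065, adjusted p = 4.69e-04) and Cdc45, a replication helicase factor, by 0.20 (SE 0.051, adjusted p = 0.0220; 0.18 to 0.20 and adjusted p 0.0509 to 0.0656 without any 1 of knockout replicates 1 to 3 and control replicate 2).

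Markers of several cell types differed between the groups beside the desmosome genes. Their counts stand beside the 8.6% of all genes that rose and the 10.2% that fell. Alveolar type 1 markers had 10 of 12 genes higher and 0 lower, with a mean level of 11.87 to 12.03 in knockout and 11.29 to 11.44 in control arrays. Of 12 type 2 markers 11 were lower and 0 higher (10.82 to 11.39 in knockout and 12.10 to 12.31 in control arrays). Basal cell markers, several of them also keratins or hemidesmosome genes listed above, had 4 of 10 higher and 1 lower (8.05 to 8.15 and 7.81 to 7.98). The higher ones were Krt14, Krt15, Sfn and Itgb4, and the lower one was Itga6. The 5 that did not pass were Trp63, Krt5, Krt17, Ngfr and Aqp3. All are named here with their values known. Only 2 of the 10 were higher without any 1 of knockout replicate 3 and control replicates 1 and 2. Club cell markers had 1 of 8 higher and 5 lower, and ciliated cell markers 0 of 9 higher and 6 lower. The club marker that was higher was not called without any 1 of knockout replicates 1 and 4 and control replicates 1 and 3. The part of the epithelial cell types in the desmosome result was not tested. General epithelial markers had 1 of 10 higher and 1 lower (11.05 to 11.17 and 11.05 to 11.22), near the shares over all genes. The higher one, Krt8, kept its call only without knockout replicate 4 or control replicate 4 among the arrays left out 1 at a time. With the mesenchymal covariate Krt8 was 0.17 (adjusted p = 0.425), against 0.27 (adjusted p = 0.0367).

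Of the cell types that the Epcam selection should remove, endothelial markers had 5 of 10 higher (9.54 to 9.63 in knockout and 9.16 to 9.49 in control arrays), mesenchymal markers 4 of 12 higher (8.93 to 9.42 and 8.64 to 9.07) and mesothelial markers 2 of 8 higher (8.18 to 8.63 and 7.70 to 8.28), with 0 lower in each. The mesenchymal count was 8 without knockout replicate 1 and 6 without control replicate 4, but 1 without any 1 of knockout replicates 3 and 4 and control replicates 1 to 3. Leukocyte markers had 0 of 10 higher and 1 lower (9.67 to 9.98 and 9.33 to 10.29), where 10.2% of all genes fell. The 2 higher mesothelial markers were Msln (12.58 in knockout and 11.83 in control arrays) and Upk1b (9.62 and 8.19), and 6 did not pass. The lower leukocyte marker was Lyz2 (12.22 and 13.15), and 9 did not pass. These genes were picked with their values known, and which cells their RNA came from was not tested. Cardiac muscle, which also has desmosomes, had 0 of 12 markers higher and 1 lower (7.49 to 7.86 and 7.58 to 7.69), also near that share. With mean mesenchymal marker level added to the fit, the differences of the 7 genes that rose were 0.23 to 1.25, against 0.22 to 1.17 without it, and 2 of them, Dsc2 and Dsp, still passed the test. Without knockout replicates 1 and 4 together 4 passed, Dsc2, Dsg2, Pkp2 and Dsp, and without knockout replicate 1 alone, the array with both Xist and Eif2s3y, 6 passed. The part of endothelial and mesothelial cells in the result was not tested.

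**Figure D4:**
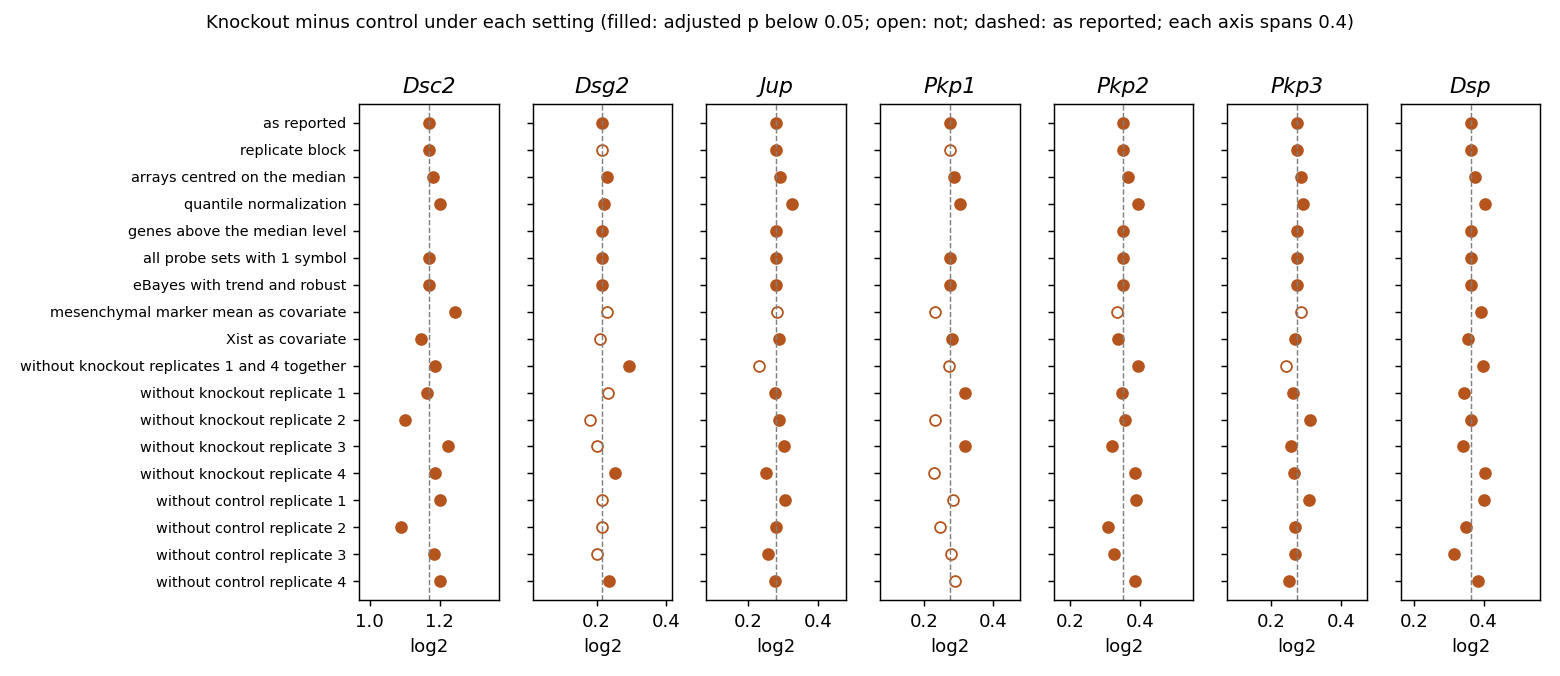
Knockout minus control difference on the log2 scale for the 7 desmosome genes that rose, 1 panel per gene, under the reported setting (top row, dashed line) and each of 17 alternatives; points are filled where the adjusted p was below 0.05, and a missing point means that the gene was not tested there. Dsc2 and Dsp are filled under every alternative that tested them, while Dsg2 and Pkp1 are open under 9 alternatives each.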

How the data were processed

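The authors deposited 1 table of values, read from their range as log2 expression, for 35556 probe sets in 8 arrays; the scale, normalization, software and genome build were not given in the sources used here. All arrays already shared nearly the same distribution (at every rank within 0.17 of the mean of the arrays), so none was rescaled, and a shift in overall RNA content would not show. Per the labels' protocols, dissociated lung cells were sorted on anti-Epcam microbeads and their RNA was biotin-labelled.

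Gene symbols came from the platform's annotation in GEO: 21789 probe sets have 1 symbol, 1621 several and 12146 none given. Of the first, 21698 matched RefSeq's table by gene number, with 0 symbols changed. For each gene the probe set with the highest mean was kept, which left 19938 genes. The group comparison used limma 3.58.1 (lmFit, eBayes; R 4.3.3), without covariates, two-sided, with Benjamini-Hochberg adjustment over all genes and a threshold of 0.05. The fit was tested on simulated data.

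Named genes are all members, the called gene with the smallest p and the one with the largest difference of each other list, and the 3 genes most like the called member with the smallest p; other genes are said to be picked with their values known. Members, lists and alternatives were chosen with earlier results of these data known.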

Additional observations from a re-analysis of the deposited data

Results flagged for a closer look

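Among 20 groups of 4 arrays (10 genes in 2 groups) 2 held an array far from the other 3, where chance flags about 1 in 20 groups. In the control arrays Dsc2 read 5.61 in replicate 2 and 5.89 to 5.94 in the others; without that array the difference was 1.09. In the knockout arrays Pkp3 read 8.77 in replicate 2 and 8.90 to 8.92 in the others; without that array the difference was 0.31.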

How the results depend on the processing

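Across 17 alternatives (a replicate block, 2 scalings, a level filter, all probe sets, another variance moderation, 2 covariates and 9 sets of arrays left out), 0 desmosome genes fell and no gene that rose changed sign. The number that rose was 7 as reported, 2 with mean mesenchymal marker level in the fit, 4 without knockout replicates 1 and 4 together, and 5 to 6 without any 1 array. With the covariate the SE of Dsc2, which kept its call, was 0.135, against 0.097, and the smaller set has fewer arrays. Why calls ended under these settings was not tested. Over all genes, 1715 rose and 2031 fell, against 758 and 948 with that covariate, and 1240 to 1820 and 1526 to 2158 without any 1 array. With the replicate number as a block 5 desmosome genes rose, without Dsg2 (adjusted p = 0.0772) and Pkp1 (adjusted p = 0.0526). The labels link same-numbered arrays by the number only. Their deviations from the group means correlated at 0.060, 0.095, -0.082 and 0.044. Knockout replicate 1 correlated best with control replicate 2 (0.27), and knockout replicate 4 with control replicate 3 (0.36). These values cannot show whether same-numbered arrays were prepared together, which the labels do not give.

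Signs turned only near 0. Dsg3 was 0.0085 with quantile normalization and -0.060 to 0.010 without any 1 array, Dsc3 0.024 without knockout replicate 3 (-0.079 to 0.024 over the arrays left out), and Cdh1 0.0079 with centred arrays, 0.040 with quantile normalization, 0.031 with the mesenchymal covariate and -0.023 to 0.0087 without any 1 array; none of these passed the test. Counts of risen genes moved by over 1.5 times in some other lists: adherens junction 4, 2 with the covariate; hemidesmosome 4, 2 to 5; keratins 9, 5 where 6 genes were left above the median level; p53 and p63 targets 2, 1 to 3; general epithelial markers 1, 0 to 3; basal markers 4, 2 to 4; club markers 1, 0 to 1; mesenchymal markers 4, 0 to 8; endothelial markers 5, 0 to 7. Cardiac markers had 0 risen, but 1 with the replicate block and 1 with quantile normalization, and leukocyte markers 0, but 1 without control replicate 2. Counts of fallen genes ran from 0 to 1 (1 as reported) in the other desmosome, hemidesmosome, keratin and basal lists, from 1 to 2 (2) in the p53 and p63 list and from 3 to 5 (5) in the club list. Whether Dsc3, Dsg3, Dsg1b, Dsg1c, Dsg4 and the control level of Dsc2 were near background was not tested.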
